A study of Mus musculus with 18 samples.

Results

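The genes described here are 10 markers of midbrain dopamine neurons, namely Slc6a3, Th, Ddc, Slc18a2, Chrna6, Pitx3, En1, Foxa1, Aldh1a1 and Ret, which are 10 of the 27179 genes counted. They were taken from the count table by symbol. The list was selected on known roles of the genes and on their slopes with dose in these same mice. Their levels by dose, and the counts of calls among them, are therefore given as a description and not as the outcome of a test. RNA was sequenced from half-brains of 18 mice to ask how brain gene expression varies with the dose of glyphosate, the active compound of a widely used herbicide. All mice were wild-type C57BL/6J animals, a standard inbred strain, of both sexes, were 4 months old at the first dose and were gavaged daily for 14 days. The vehicle group received the neutralised sodium hydroxide solution without glyphosate (5 mice, 3 females and 2 males). The other groups received 125 mg/kg (5 mice, 2 females and 3 males), 250 mg/kg (4 mice, 1 female and 3 males) or 500 mg/kg (4 mice, 2 females and 2 males) of body weight per day. The paper's background calls the sequenced tissue hippocampal and its methods call it half-brain.

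Midbrain dopamine neurons lie in the substantia nigra and the ventral tegmental area, and their axons reach the striatum and the frontal cortex, where dopamine shapes movement, reward and motivation. The neurons make dopamine from tyrosine by way of L-DOPA, load it into vesicles, and take it up again from the extracellular space after release. Serotonin neurons of the raphe and noradrenaline neurons of the locus coeruleus share parts of this machinery, so that the genes differ in how far they single out dopamine neurons.

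Total counts per mouse ranged from 3948096 to 11732885, with a median of 7789800, and levels are given as CPM (counts per 1000000 counts of the library) after TMM scaling, which corrects for differences in library composition. Of 27179 genes, 15863 had enough counts to be tested. Mouse G9 of the vehicle group and mouse G4 of the 500 mg/kg group stood apart from the other libraries, with median correlations to the rest of 0.942 and 0.943, where the other mice had 0.959 to 0.975. The label of G4 is 500 mg/kg, while its number lies among those of vehicle mice and its tag number 44 is carried by 1 other mouse, G79 of the same dose, and values are given with and without it. Markers of single brain regions also varied between mice. Drd1, a dopamine receptor of striatal neurons, ran from 1.77 CPM in G9 to 262 CPM in G29, and Gabra6, a receptor subunit of cerebellar granule cells, from 0.0929 CPM in G29 to 403 CPM in G49.

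The promoters of 8 of the 10 genes were found in the RefSeq table of GRCm38.p6, in 10 windows of 250 bases before a transcription start with annotated exon bases removed, and Chrna6 and Ret had no entry. Sequences are shown for the transporter, for both synthesis enzymes and for the only one of the 8 genes searched with a forkhead match, to set these genes' start regions beside their levels. Capitals mark the letters of a motif on either strand. The Slc6a3 window (chr13:73536497-73536746, plus strand) held none of the motifs searched. The Th window (chr7:142900015-142900245, minus strand) held the cyclic AMP response element TGACGTCA. The upstream Ddc window (chr11:11898145-11898394, minus strand) held the orphan nuclear receptor element AAAGGTCA on its reverse strand, overlapping a TATAAA match on that strand. The other Ddc window (chr11:11890409-11890658, minus strand), not shown, held none of the motifs. The Foxa1 window (chr12:57546122-57546361, minus strand) held the forkhead motif TGTTTAC on its reverse strand. The Slc6a3 and Foxa1 windows lie inside the gene spans given below, and no window before the outer end of these spans was searched.
Slc6a3: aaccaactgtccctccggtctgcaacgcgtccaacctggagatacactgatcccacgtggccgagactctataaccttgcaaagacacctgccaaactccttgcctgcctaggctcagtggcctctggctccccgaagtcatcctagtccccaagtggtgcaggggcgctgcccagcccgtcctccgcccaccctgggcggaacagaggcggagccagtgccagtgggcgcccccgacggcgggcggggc
Th: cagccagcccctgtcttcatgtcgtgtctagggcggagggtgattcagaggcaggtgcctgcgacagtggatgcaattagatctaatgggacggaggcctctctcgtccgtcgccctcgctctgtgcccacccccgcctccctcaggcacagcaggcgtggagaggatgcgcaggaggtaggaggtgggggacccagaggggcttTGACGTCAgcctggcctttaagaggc
Ddc: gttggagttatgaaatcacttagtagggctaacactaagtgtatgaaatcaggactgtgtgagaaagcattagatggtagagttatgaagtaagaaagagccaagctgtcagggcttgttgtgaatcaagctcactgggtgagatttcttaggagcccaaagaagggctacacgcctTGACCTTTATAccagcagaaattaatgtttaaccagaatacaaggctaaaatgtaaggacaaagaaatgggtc
Foxa1: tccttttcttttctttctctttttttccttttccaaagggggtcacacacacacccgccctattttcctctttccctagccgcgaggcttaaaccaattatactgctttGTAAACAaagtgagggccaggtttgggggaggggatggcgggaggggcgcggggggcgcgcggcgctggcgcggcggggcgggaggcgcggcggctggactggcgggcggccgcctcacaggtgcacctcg

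Each motif was found in 1 of the 8 genes with a window, apart from TAATCC, the letters bound by bicoid-type homeodomain proteins such as Pitx3, which was in none. Among 32851 promoters of the same length, 1.55% held TGACGTCA, 1.34% held AAAGGTCA, 3.17% held TGTTTAC, 12.4% held TATAAA and 6.25% held TAATCC. The matches describe letters in these windows and were not linked to the levels.

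Slc6a3, the plasma membrane transporter that takes dopamine back into the neuron, had the largest slope on dose of the 10 genes (Entrez 13162, chromosome 13 from 73536128 to 73578672, GRCm38). At 500 mg/kg its level was 36.0 CPM in G4, 13.7 in G79, 43.4 in G87 and 28.9 in G90. In vehicle mice it was 0 in G1, 0.631 in G5, 0.554 in G9, 0 in G15 and 0.285 in G18, which rests on 6, 5 and 2 reads in the mice above 0. All 4 mice of the highest dose exceeded all 5 vehicle mice, and 82 to 330 reads stood behind each of these values. The mean was 30.5 ± 12.6 CPM (SD, n = 4) at 500 mg/kg and 0.294 ± 0.298 CPM (n = 5) in vehicle mice, a ratio of 104 with G4 and 97.5 without it. At the intermediate doses the level was low and uneven. At 125 mg/kg it was 0.461 and 0.372 CPM in females G25 and G29 and 2.57, 4.09 and 1.40 CPM in males G34, G40 and G45, and at 250 mg/kg it was 0 in G49 and G66, 2.05 in G64 and 12.0 in G71. The slope of the log2 level on dose was 6.30 per 500 mg/kg (standard error 0.73), 5.75 without G4 and 4.51 (standard error 2.47) without the 500 mg/kg mice.

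**Figure D1:**
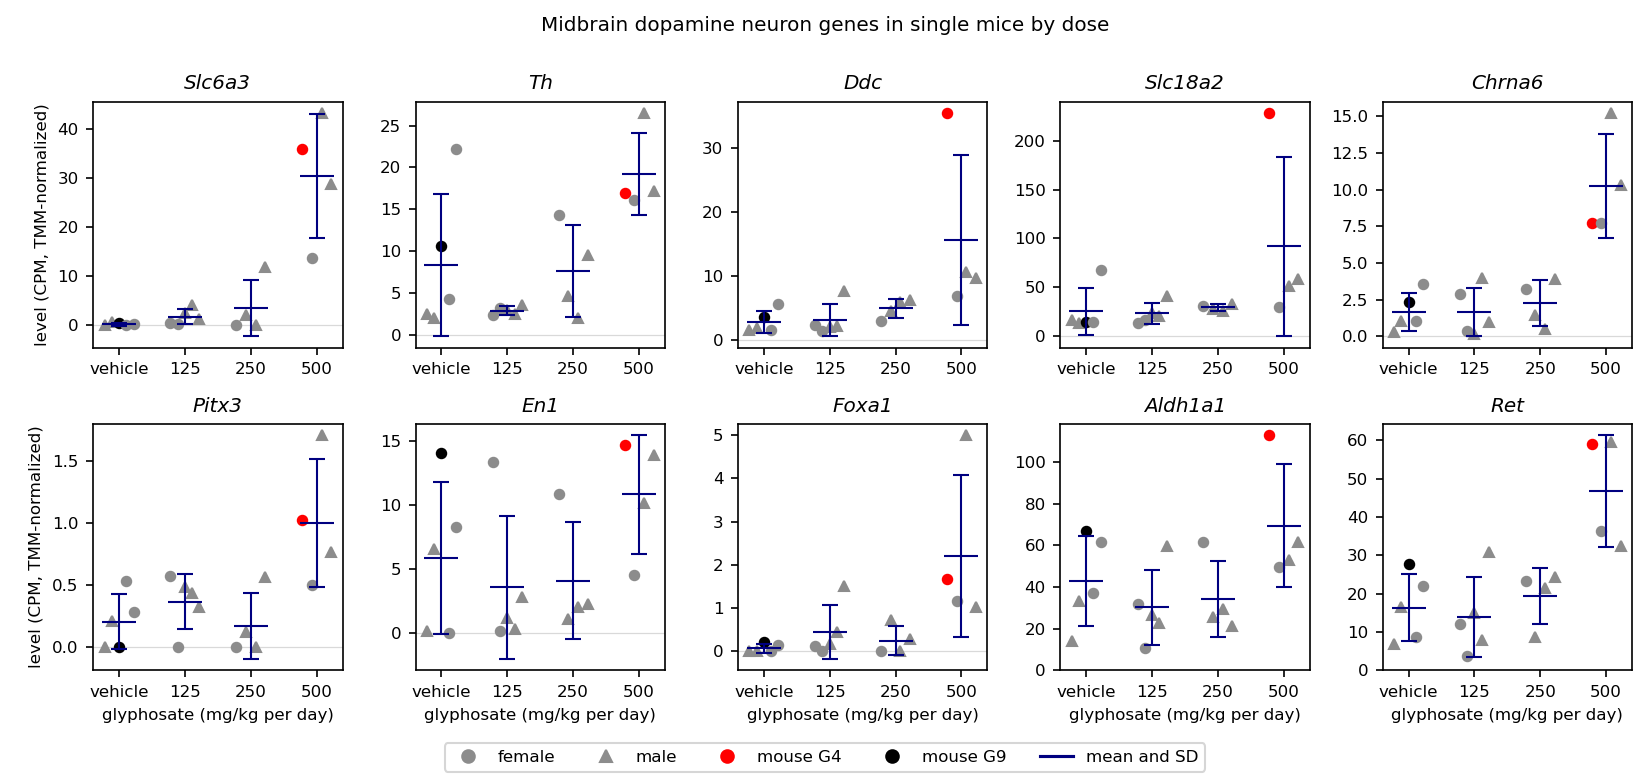
Level of each gene (CPM after TMM scaling, linear axis) in each of the 18 mice by glyphosate dose in mg/kg per day, with circles for females, triangles for males, red for mouse G4, black for mouse G9, and bars for the mean and SD of each dose group. The 4 mice at 500 mg/kg sit above every vehicle mouse for Slc6a3, Ddc, Chrna6, Foxa1 and Ret.

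The synthesis enzymes were higher at 500 mg/kg as well, but their ranges came closer to those of vehicle mice. Th, tyrosine hydroxylase, catalyses the rate-limiting step that makes L-DOPA (Entrez 21823, chromosome 7 from 142892779 to 142899995). Its level at 500 mg/kg was 17.0 CPM in G4, 16.1 in G79, 26.5 in G87 and 17.2 in G90, and in vehicle mice it was 2.46 in G1, 2.0 in G5, 10.6 in G9, 4.23 in G15 and 22.3 in G18. The vehicle mouse G18 therefore lay above 3 of the 4 mice at 500 mg/kg. That mouse also had the highest Dbh level, 25.7 CPM, the enzyme that turns dopamine into noradrenaline, and the highest Slc6a2 level, 80.6 CPM, the noradrenaline transporter. At 250 mg/kg the highest Th level, 14.3 CPM in G49, likewise came with 15.5 CPM of Dbh and 36.0 CPM of Slc6a2. In both mice Slc6a3 was near 0, at 0.285 CPM in G18 and 0 in G49.

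Ddc, the decarboxylase that makes dopamine from L-DOPA and serotonin from its precursor (Entrez 13195, chromosome 11 from 11814101 to 11898144), was 35.6 CPM in G4, 6.87 in G79, 10.6 in G87 and 9.68 in G90 at 500 mg/kg. In vehicle mice it was 1.54 in G1, 1.89 in G5, 3.66 in G9, 1.59 in G15 and 5.56 in G18. The groups did not overlap, but G4 stood far above the other 3 mice at its dose, and the 500 mg/kg mean was 15.7 ± 13.4 CPM (SD, n = 4) with G4 and 9.07 ± 1.96 CPM (n = 3) without it, against 2.85 ± 1.75 CPM (n = 5) in vehicle mice. G4 also had 185 CPM of Tph2, which makes serotonin, and 96.6 CPM of the serotonin transporter Slc6a4, while the highest levels in any other mouse were 23.4 and 13.7 CPM, both in G45. G45 in turn had the highest Ddc level at 125 mg/kg, 7.66 CPM, above the 1.39 to 2.30 CPM of the other mice at that dose.

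Slc18a2, the vesicular transporter that loads dopamine, serotonin and noradrenaline alike (Entrez 214084, chromosome 19 from 59260878 to 59296012), showed the same mice at its extremes. Its level at 500 mg/kg was 229 CPM in G4, 29.2 in G79, 50.7 in G87 and 58.1 in G90, and in vehicle mice it was 67.3 in G18 and 13.6 to 16.3 in the other 4. The mean at 500 mg/kg was 91.7 ± 92.3 CPM (SD, n = 4) with G4 and 46.0 ± 15 CPM (n = 3) without it, against 25 ± 23.7 CPM (n = 5) in vehicle mice. Its slope was 1.96 (standard error 0.48) with G4 and 0.94 (standard error 0.46) without it. Whether serotonin or noradrenaline neurons contributed to the levels of these shared genes was not tested.

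Chrna6, the nicotinic receptor subunit through which acetylcholine acts on dopamine axons (Entrez 11440, chromosome 8 from 27403212 to 27413944), changed little when G4 was left out. Its level at 500 mg/kg was 7.71 CPM in both G4 and G79, 15.2 in G87 and 10.3 in G90, and in vehicle mice it was 0.308 in G1, 1.05 in G5, 2.33 in G9, 1.06 in G15 and 3.57 in G18. The groups did not overlap, the mean was 10.2 ± 3.55 CPM (SD, n = 4) at 500 mg/kg and 1.66 ± 1.29 CPM (n = 5) in vehicle mice, and the slope was 2.93 (standard error 0.60) with G4 and 3.12 (standard error 0.68) without it. The levels at 125 mg/kg, 0.161 to 3.95 CPM, and at 250 mg/kg, 0.492 to 3.94 CPM, covered about the range of the vehicle mice.

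Ret, the receptor tyrosine kinase through which glial cell line-derived neurotrophic factor supports dopamine neurons (Entrez 19713, chromosome 6 from 118151748 to 118197744), was 59.1 CPM in G4, 36.2 in G79, 59.5 in G87 and 32.4 in G90 at 500 mg/kg. In vehicle mice it was 6.78 in G1, 16.5 in G5, 27.7 in G9, 8.60 in G15 and 21.8 in G18. These groups did not overlap either, and the slope was 1.65 (standard error 0.44) with G4 and 1.46 (standard error 0.49) without it.

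Aldh1a1, an aldehyde dehydrogenase that makes retinoic acid and marks the ventral tier of the substantia nigra (Entrez 11668, chromosome 19 from 20492583 to 20643463), was 113 CPM in G4, 49.8 in G79, 53.1 in G87 and 61.8 in G90 at 500 mg/kg. In vehicle mice it was 14.2 in G1, 33.5 in G5, 66.9 in G9, 37.3 in G15 and 61.5 in G18. Only G4 exceeded all vehicle mice, and the slope was 0.88 (standard error 0.39) with G4 and 0.61 (standard error 0.44) without it. The gene overlaps counted noncoding genes, so how the counting divided reads between these and Aldh1a1 is uncertain. The levels of the close paralog Aldh1a7 were at most 1.29 CPM.

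Foxa1 and Pitx3, transcription factors that specify these neurons, had the fewest reads of the 10 genes at 500 mg/kg. Foxa1, a forkhead factor needed for dopamine neuron development (Entrez 15375, chromosome 12 from 57540628 to 57548029), was 1.67 CPM in G4, 1.17 in G79, 4.99 in G87 and 1.02 in G90 at 500 mg/kg. In vehicle mice it was 0.222 in G9, 0.143 in G18 and 0 in the other 3, a total of 3 reads in the group, so no ratio is given. Pitx3, a homeodomain factor on which survival of substantia nigra neurons depends (Entrez 18742, chromosome 19 from 46135281 to 46148325), was 1.03 CPM in G4, 0.503 in G79, 1.71 in G87 and 0.764 in G90 at 500 mg/kg, and at most 0.529 CPM in vehicle mice, so that G79 fell within the vehicle range. Both genes had too few counts to be tested, and no mouse had more than 13 reads of Pitx3. In a fit without the filter on low counts their slopes were 3.91 (standard error 0.84) for Foxa1 and 2.10 (standard error 0.80) for Pitx3.

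En1, a homeodomain factor of the midbrain and anterior hindbrain (Entrez 13798, chromosome 1 from 120602487 to 120607991), spread widely within each dose. Its level at 500 mg/kg was 14.6 CPM in G4, 4.53 in G79, 10.1 in G87 and 13.9 in G90, and in vehicle mice it was 0.154 in G1, 6.52 in G5, 14.1 in G9, 0 in G15 and 8.28 in G18. The ranges overlapped, and single mice at the lower doses, G25 with 13.4 CPM at 125 mg/kg and G49 with 10.9 CPM at 250 mg/kg, stood above the rest of their groups. Its slope of 1.43 had a standard error of 0.87 and was -0.68 (standard error 2.05) without the 500 mg/kg mice.

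Among the 10 genes, all mice of the 500 mg/kg group exceeded all vehicle mice for 5 of them (Slc6a3, Ddc, Chrna6, Foxa1 and Ret) and for 4 of the 8 tested, where 2.32% of the 15863 tested genes did so. For 0 of the 10 genes did all of them lie below the vehicle mice, where 0.933% of the tested genes did so. The slopes of the 8 tested genes were all positive, where 51.2% of all tested genes had a positive slope, and their median was 1.98 per 500 mg/kg (1.56 without G4), against 0.01 over all tested genes. The dose regression called 3 of the 8, Slc6a3, Ddc and Chrna6, as rising at an adjusted p under 0.05 from edgeR, where it called 0.246% of all tested genes. Without G4 it called 1 of the 8 (Slc6a3), where it called 2 of 16078 tested genes in either direction. DESeq2 called 5 of the 8 as rising, where it called 188 of the 15863 tested genes as rising. With the tag number of the mice as a block edgeR called 0, as it did over all genes. These counts rest on the contrast that chose the genes and are given as a description. In half-brain RNA, more cells of a type in the sample and more RNA per cell cannot be told apart. All 8 genes also passed the filter when the 500 mg/kg mice were left out, and their median slope was then 0.79.

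**Figure D2:**
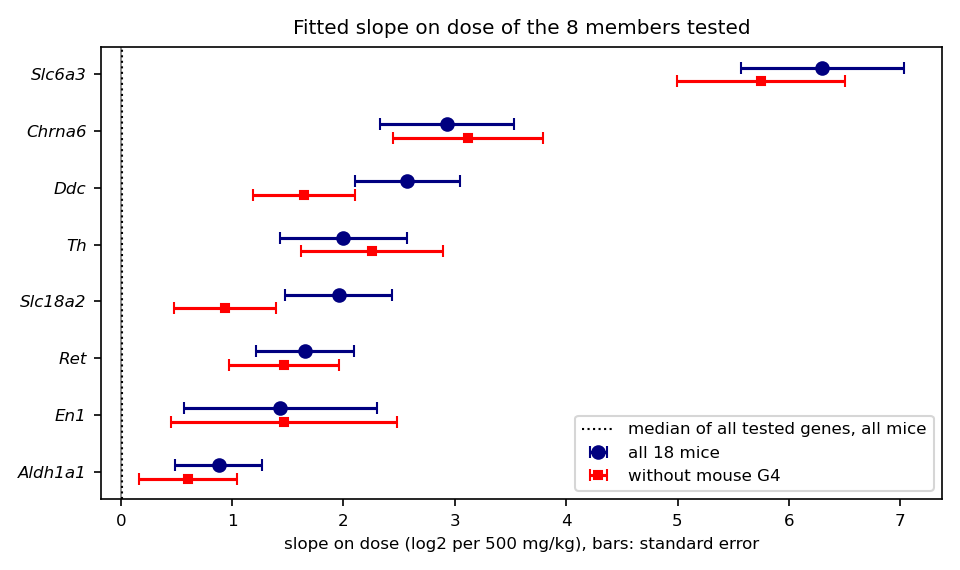
Fitted slope of the log2 level on dose (log2 per 500 mg/kg, with sex in the model) of the 8 genes with enough counts, blue circles for all 18 mice and red squares without mouse G4, with bars for 1 standard error and a dotted line at the median of all tested genes, 0.01. Slc6a3 stands at 6.30 and the others between 0.88 and 2.93, and without G4 Ddc moves to 1.65 and Slc18a2 to 0.94.

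Per kilobase of exon, Slc6a3 moved most in rank between the groups. At 500 mg/kg the mean CPM per kilobase was highest for Slc18a2 (17.6 ± 17.7, SD, n = 4) and Aldh1a1 (14.1 ± 6.0), followed by Slc6a3 (8.83 ± 3.66), Th (8.12 ± 2.08) and Ret (6.92 ± 2.15). Below them came En1 (4.11 ± 1.76), Chrna6 (3.53 ± 1.22) and Ddc (3.52 ± 2.99), then Foxa1 (0.665 ± 0.563) and Pitx3 (0.656 ± 0.339). Without G4, Aldh1a1 (11.1 ± 1.26, n = 3) came before Slc18a2 (8.80 ± 2.88), and the order went on with Th (8.44 ± 2.43), Slc6a3 (8.30 ± 4.29) and Ret (6.31 ± 2.17). With G4, the ranges of neighbours in the order overlapped, except that all values of Foxa1 (0.306 to 1.5 CPM per kilobase) lay below those of Ddc (1.54 to 7.98). In vehicle mice Aldh1a1 (8.64 ± 4.38, n = 5) and Slc18a2 (4.79 ± 4.53) were again highest, while Slc6a3 came next to last (0.0851 ± 0.0861), with only Foxa1 lower (0.0219 ± 0.0311). The ranges of all neighbours overlapped in vehicle mice.

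A comparison that the choice of genes did not use is that between females and males, tested in all 18 mice with dose group as a factor. None of the 8 tested genes differed between the sexes by edgeR or by DESeq2, where edgeR called 7 genes (0.0441% of all tested) and DESeq2 18. At an unadjusted p under 0.05 from edgeR, 0 of the 8 passed, where 7.99% of all tested genes did. Slc6a3 had the largest difference, a log2 level of females minus males of -1.38 (standard error 0.70, edgeR adjusted p = 0.622). En1 was 1.29 higher (standard error 0.72, edgeR adjusted p = 0.645) and Th 0.76 higher in females than in males (standard error 0.42, edgeR adjusted p = 0.644). With standard errors of 0.33 to 0.72, differences of this size in either direction were not detectable at an adjusted p under 0.05. The slope on dose did not pass as differing between females and males for any gene by either tool (0 of 8 here, and 0 of 15863). At an unadjusted p under 0.05, 1 of the 8 passed, where 1.65% of all tested genes did. This was Th, whose slope in females minus that in males was -2.80 (standard error 1.0, unadjusted p = 0.0115 and adjusted p = 0.9999 from edgeR).

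The number in the mouse tags gave another division of the mice. Number 46 was carried by G87 and G90 at 500 mg/kg and by G9 and G15 in the vehicle group, the only tag number found at both doses. Among these 4 mice, Slc6a3 was 43.4 and 28.9 CPM at 500 mg/kg against 0.554 and 0 CPM in vehicle mice, while the ranges of En1 and Aldh1a1 overlapped. These mice are part of the contrast that chose the genes. The share of all genes that separate in this way was not counted, so these values are a description. The 500 mg/kg mice here were males and the vehicle mice females, so that dose and sex cannot be told apart in this comparison. With the tag number as a block in the fit beside sex, the 8 slopes ran from 1.35 (Aldh1a1, standard error 0.79) to 4.15 (Chrna6, standard error 1.48), and that of Slc6a3 was 2.71 with a standard error of 4.22. Only numbers 43 and 46 were found at more than 1 dose. In both, the vehicle mice were females and the dosed mice males. The only vehicle mouse of number 43 was G18, and in number 45 G49 was the only female. This fit thus separates dose from sex through few mice.

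Within a dose, the genes varied together only in part. Deviations of log2(CPM + 1) from the dose group means were correlated over the 18 mice, as a description without a test, since the values of a mouse share 1 library. Of 45 pairs, 43 had a positive Pearson correlation, with a median of 0.36 and a range of -0.08 to 0.84 (median 0.41 without G4). The highest Pearson value was that of Ddc with Slc18a2 (0.84, Spearman 0.58, and Pearson 0.72 without G4), followed by Aldh1a1 with Ret (0.78, Spearman 0.59, and Pearson 0.78 without G4) and En1 with Aldh1a1 (0.70, Spearman 0.69, and Pearson 0.71 without G4). Without G4, Aldh1a1 with Ret was thus the highest pair, and Ddc with Ret (0.73) also came before Ddc with Slc18a2. Slc6a3 was closest to Pitx3 (0.62, Spearman 0.59), then to Foxa1 (0.40) and Chrna6 (0.39), and near 0 with En1 (-0.06) and Aldh1a1 (-0.08). Pitx3 and Foxa1 had few reads, and Slc6a3, Pitx3 and Foxa1 all had no read in G1, G49 and G66. Their correlations thus rest in part on counts at or near 0.

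Several of the 10 genes, not only the shared enzymes and transporters, were correlated with the genes that define other monoamine neurons. Ddc had a correlation of 0.90 with Tph2 (Spearman 0.78, and Pearson 0.84 without G4) and Slc18a2 of 0.76 (Spearman 0.35, and Pearson 0.58 without G4), while Aldh1a1 had 0.63 (Spearman 0.64) and Ret 0.52 (Spearman 0.38). Slc6a3, Chrna6 and Pitx3 had -0.05, -0.05 and 0.00 with Tph2. Th had a correlation of 0.72 with Dbh (Spearman 0.50) and of 0.18 with Slc6a3 (Spearman 0.21), and Slc6a3 of -0.20 with Dbh. En1, Aldh1a1 and Chrna6 had 0.54, 0.53 and 0.46 with Dbh.

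**Figure D3:**
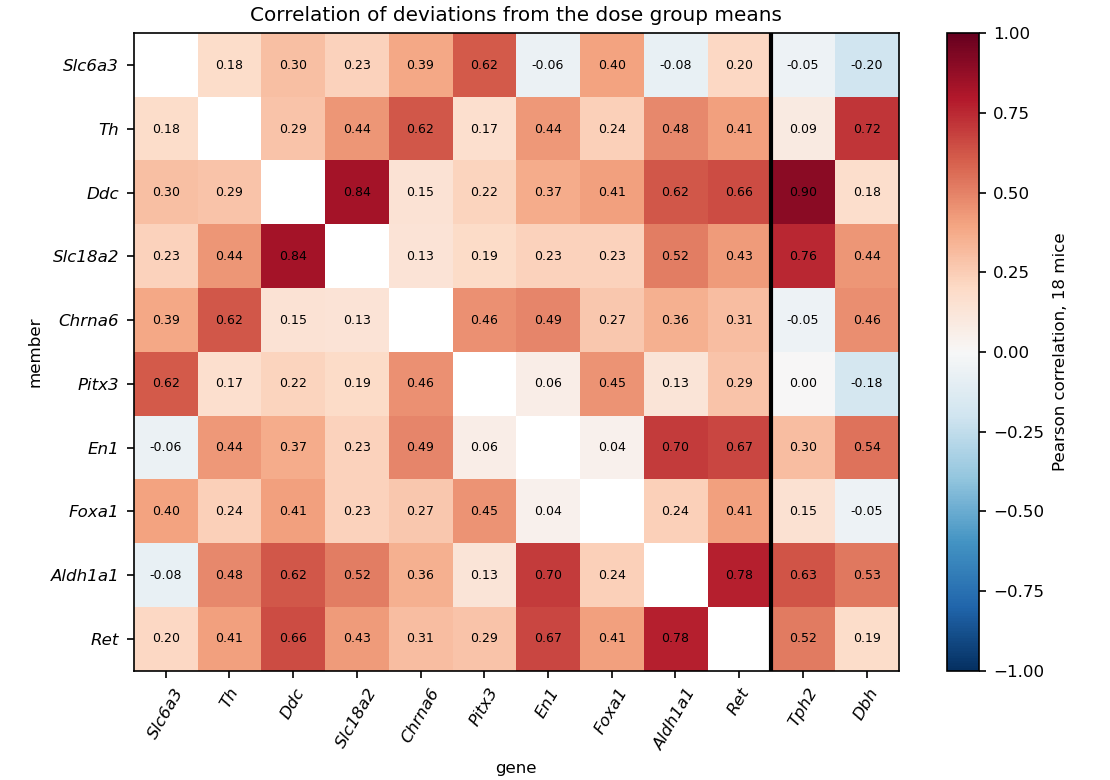
Pearson correlation, over 18 mice, of deviations of log2(CPM + 1) from the dose group means, for pairs of the 10 genes and, right of the black line, for each gene with Tph2 and Dbh, which define serotonin and noradrenaline neurons. Ddc and Slc18a2 form the darkest pair (0.84), and Slc6a3 is darkest with Pitx3 (0.62), which had few reads in every mouse.

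The genes outside all marker lists whose deviations followed the mean of the 10 genes closely, among 15469 tested genes with a mean of at least 1 CPM, included Gdpd2, a glycerophosphodiester phosphodiesterase (Pearson 0.88 over 18 mice), B630019K06Rik (0.88) and Slc6a11, a GABA transporter (0.87). Grb10, Resp18, Lbh, Pank1, Pgm1 and Vat1 followed with 0.84 to 0.85. None of these genes passed the dose regression in edgeR, with adjusted p from 0.183 for B630019K06Rik to 0.809 for Pank1.

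Of 54 other genes of the dopamine system in 4 lists, 49 had enough counts and none passed the dose regression in edgeR, while 11 had an unadjusted p under 0.05, where 13.2% of all tested genes did, and DESeq2 called 2. Among 10 other transcription factors of these neurons, 9 were tested, 4 slopes were positive and none had an unadjusted p under 0.05. Nr4a2, the nuclear receptor required for the dopamine identity, had a slope of -0.79 (standard error 0.44, edgeR adjusted p = 0.453), and Lmx1b, a LIM homeodomain factor, of 1.39 (standard error 0.76, edgeR adjusted p = 0.447). Among 22 surface and subtype genes, 20 were tested, 10 slopes were positive, with a median of -0.02, and 9 had an unadjusted p under 0.05, where 13.2% of all tested genes did.

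Both genes that DESeq2 called were higher in each mouse at 500 mg/kg than the vehicle median. Dlk1, a transmembrane protein of dopamine neurons that is also found in hypothalamic neurons, was 116, 51.6, 105 and 43.8 CPM at 500 mg/kg and 1.39, 18.8, 31.4, 7.54 and 30.4 CPM in vehicle mice. The groups did not overlap, and its slope of 2.29 (standard error 0.50) had an adjusted p of 0.0576 from edgeR and 0.00845 from DESeq2. Gch1, which makes the first intermediate of the tetrahydrobiopterin cofactor that Th and Tph2 need, was 21.3, 4.36, 7.49 and 4.08 CPM at 500 mg/kg and 0.924, 0.421, 2.66, 1.72 and 6.14 CPM in vehicle mice. The groups overlapped, and its slope of 2.13 (standard error 0.47) had an adjusted p of 0.0580 from edgeR and 0.00265 from DESeq2, and was 1.44 without G4 (edgeR adjusted p = 0.501). The slope of Slc10a4, a vesicular protein of monoamine and cholinergic neurons, was 1.70 (standard error 0.52, edgeR adjusted p = 0.172).

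Of 9 cofactor and breakdown genes, all were tested and 4 slopes were positive (median -0.02), and Maoa, which degrades monoamines, had a slope of 0.28 (standard error 0.21, edgeR adjusted p = 0.593). On the receiving side, 11 of 13 receptors and striatal target genes were tested and 10 slopes were negative, with a median of -1.08. None had an unadjusted p under 0.05 from edgeR, where 13.2% of all tested genes did. Their summed level varied widely within a dose. It ran between 729 and 1567 CPM at 500 mg/kg, inside the range of 620 to 5184 CPM in vehicle mice. Ppp1r1b, the dopamine-regulated phosphatase inhibitor of striatal neurons, had a slope of -1.45 (standard error 0.70, edgeR adjusted p = 0.381) and Drd1 of -2.0 (standard error 1.04, edgeR adjusted p = 0.424).

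Markers of neighbouring cell types and regions moved with the 10 genes in part. Of 14 hypothalamic markers 11 were tested, and all 11 slopes were positive with a median of 2.91. In edgeR 8 had an unadjusted p under 0.05, where 13.2% of all tested genes did. By the adjusted p 1 rose, Irs4, an insulin receptor substrate (slope 3.22, standard error 0.63, edgeR adjusted p = 0.0361, and 0.265 without G4). DESeq2 called 2 of the 11 as rising, where it called 188 of the 15863 tested genes. Irs4 was 54.2 CPM in G4, 43.6 in G79, 32.5 in G87 and 9.30 in G90 at 500 mg/kg, and 0.770 to 6.14 CPM in vehicle mice, without overlap. The summed level of the hypothalamic list ran between 6.21 and 15.1 CPM in vehicle mice. It ran between 6.22 and 70.7 CPM in the 125 mg/kg group, between 11.3 and 123 CPM in the 250 mg/kg group and between 18.6 and 151 CPM in the 500 mg/kg group. No marker of it was at 0 throughout the 500 mg/kg or the vehicle group. The 500 mg/kg mice did not share 1 pattern, since Pmch, a peptide precursor of the lateral hypothalamus, was 22.1 and 25.2 CPM in G79 and G87 and 0.514 and 0.637 CPM in G4 and G90. At 250 mg/kg the mouse with the highest Slc6a3 level, G71, had the highest Pmch and Irs4 levels of its dose, 32.2 and 30.5 CPM.

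The serotonin list had 6 of 7 genes tested, none of which passed, and its summed level ran between 35.0 and 63.9 CPM in vehicle mice, between 34.5 and 77.7 CPM in the 125 mg/kg group, between 30.6 and 76.7 CPM in the 250 mg/kg group and between 39.4 and 392 CPM in the 500 mg/kg group. The slope of Tph2 was 3.45 (standard error 1.15, edgeR adjusted p = 0.207) with G4 and 0.29 without it. Of 5 noradrenaline markers 3 were tested and none passed, with summed levels of 9.39 to 34 CPM at 500 mg/kg and 0.264 to 118 CPM in vehicle mice. Of 8 other midbrain markers 7 were tested and none passed, with summed levels of 26.9 to 61.2 CPM at 500 mg/kg and 18.5 to 47.3 CPM in vehicle mice, and Gata2, a factor of midbrain GABA neurons, had a slope of 1.17 (standard error 0.40, edgeR adjusted p = 0.221). The 6 cerebellar markers all had negative slopes and none passed, with summed levels of 120 to 1807 CPM at 500 mg/kg and 786 to 2430 CPM in vehicle mice. No olfactory bulb marker passed, of 3 tested. An unadjusted p under 0.05 from edgeR was found for 3 serotonin and 2 other midbrain markers, where 13.2% of all tested genes had one. It was found for 0 noradrenaline, cerebellar or olfactory bulb markers. The median slope of the tested serotonin markers was 1.33 with G4 and 0.10 without it. The part of these regional differences between mice in the levels of the dopamine neuron genes was not tested.

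**Figure D4:**
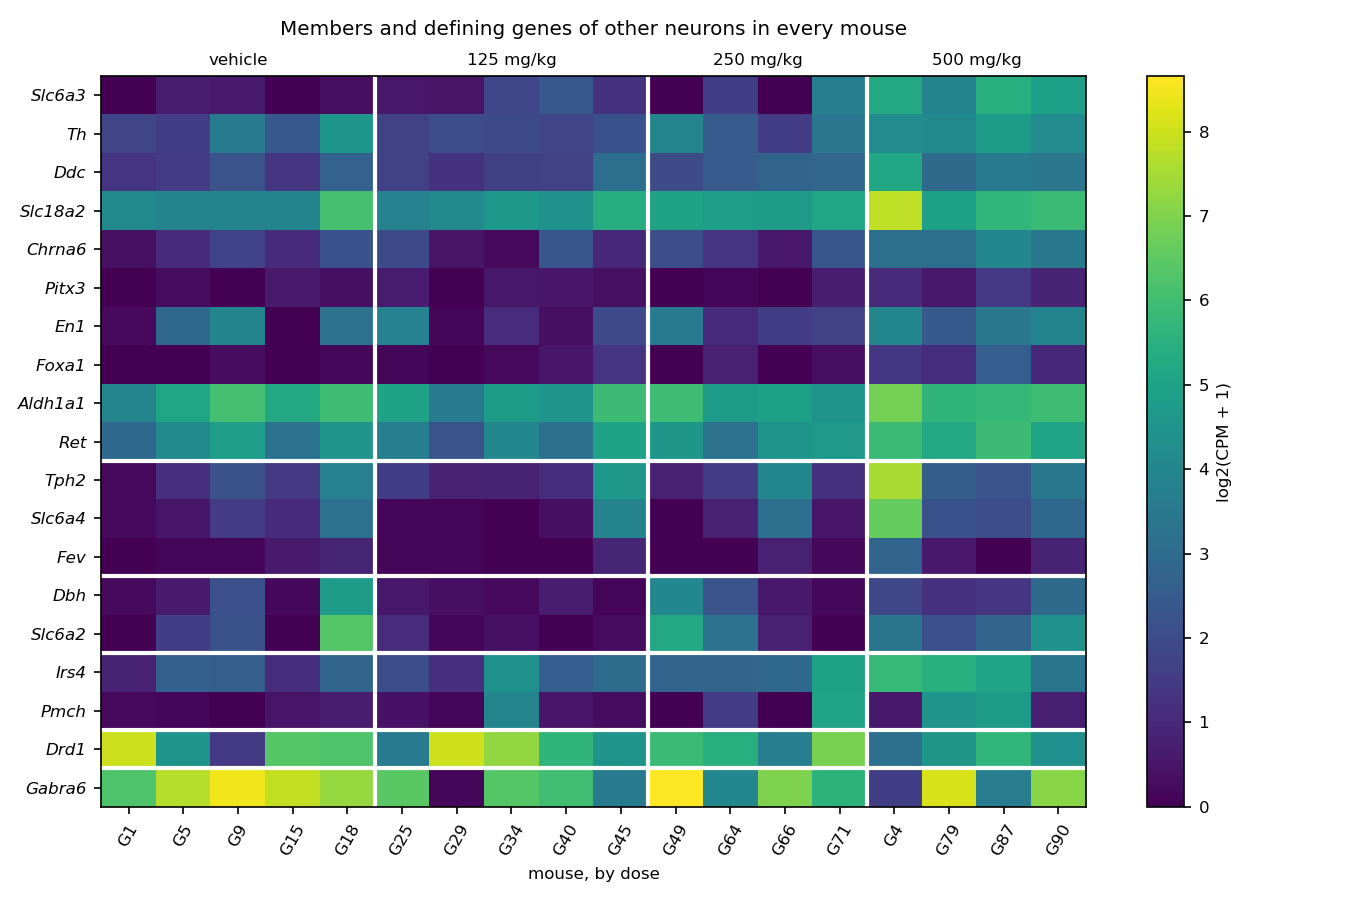
Level as log2(CPM + 1) of the 10 genes and, below the first white line, of defining genes of serotonin (Tph2, Slc6a4, Fev), noradrenaline (Dbh, Slc6a2), hypothalamic (Irs4, Pmch), striatal (Drd1) and cerebellar (Gabra6) neurons in each of the 18 mice, ordered by dose. G4 is brightest for Slc18a2, Tph2 and Slc6a4, with 229, 185 and 96.6 CPM, and Slc6a3 is bright in the 4 mice at 500 mg/kg, at 13.7 to 43.4 CPM.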

How the data were processed

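Stranded libraries from 250 ng of total RNA, depleted of ribosomal RNA, were sequenced as 100 bp paired-end reads. The authors used STAR 2.7.5b for alignment to GRCm38 and featureCounts for counting, and the deposited values are raw counts of 27179 genes by Entrez number. The strand setting of the counting is not given in the sources used here, so reads of overlapping genes cannot be told apart for Ddc, Pitx3, Foxa1 and Aldh1a1. RefSeq GRCm38.p6 gave symbols for 25275 genes and the promoters, and GENCODE M21 gave exon lengths. No sample column other than those of the 18 mice was present, and no pair of libraries within a group was a technical repeat (the lowest chi-square per degree of freedom of 32 pairs was 9.02).

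Counts were analysed in R 4.3.3 with edgeR 4.0.16 (quasi-likelihood F test). Libraries were scaled by TMM, and filterByExpr with the dose groups and its minimum count of 10 kept 15863 genes. Benjamini-Hochberg adjustment ran over all of these, with calls at 0.05. The dose regression used dose divided by 500 mg/kg with sex as a covariate, the sex difference used dose group as a factor, and the slope difference used the product of dose and sex. The scripts were tested on simulated data with 200 changed genes. Mice were housed in groups by sex and dose, so that cage and dose cannot be told apart, and p-values measure the spread between these mice. Total counts ran between 3948096 and 11732885 per mouse, and precision is given by the SD between mice.

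The 10 genes and all other gene lists were chosen with earlier results of these data known. All 10 genes are named, with the genes of each other list that passed the dose regression or up to 4 with the smallest p, and the 10 genes outside all lists most correlated with the 10. Of these correlated genes, the one with the highest correlation is not reported here. Gabra6, Pmch, Fev and Aldh1a7 fall outside this rule and were chosen after their values were seen. Alternatives were DESeq2 1.42.0 and its size factors, other filters on low counts, no sex covariate, dose as rank, no 500 mg/kg mice, the tag number as a block, a pseudocount of 0.25 CPM in place of 1 CPM, and leaving out each mouse. The correlations with Tph2 and Dbh, the likeness and the levels per kilobase without G4 and the slopes of the 10 genes with the tag number as a block were added after the data were seen.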

Additional observations from a re-analysis of the deposited data

Results flagged for a closer look

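In each dose group the highest and the lowest mouse of each of the 10 genes was compared with its nearest neighbour, by the gap as a share of the group's range. Of 40 groups of values, 9 had a mouse past the 95% critical value. For independent, normally distributed values chance gives about 1 in 20. These were CPM values without a log, for 10 genes in the same 18 mice, so that rate does not apply directly and the flags are a description. At 500 mg/kg, mouse G4 stood above the other mice for Slc18a2 (229 CPM, next 58.1) and Ddc (35.6 CPM, next 10.6), and mouse G87 for Th (26.5 CPM, next 17.2) and Foxa1 (4.99 CPM, next 1.67). In the vehicle group, mouse G18 stood above the others for Slc18a2 (67.3 CPM, next 16.3). At 125 mg/kg, mouse G45 stood above the others for Ddc (7.66 CPM, next 2.30) and mouse G25 for En1 (13.4 CPM, next 2.81). At 250 mg/kg, mouse G49 stood above the others for En1 (10.9 CPM, next 2.25), and mouse G64 below them for Ret (8.56 CPM, next 21.5).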

How the results depend on the processing

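The number of genes called in the dose regression, 46, was 242 with DESeq2, 27 with dose as rank, 29 without a filter on low counts and 0 both without the 500 mg/kg mice and with the tag number as a block. Leaving out single mice gave 2 (without G4) to 127 genes (without G79), with 4 without G87, 6 without G5, 7 without G15 and 101 without G9. Of the other dopamine genes 0 were called with edgeR, 2 with DESeq2 and 0 to 2 without single mice. The sex difference called 7 genes, 18 with DESeq2, 1 with at least 10 counts in every library and 5 to 9 without single mice. The median slope of the 8 tested genes, 1.98, was 0.79 without the 500 mg/kg mice, 2.76 with the tag number as a block and 1.56 (without G4) to 2.57 (without G18) when single mice were left out. The genes were chosen on their slopes in these mice, and most alternative fits share mice, so the signs that follow are a description. Of 205 slopes of single genes under alternatives, 203 were positive and 2 negative, those of En1 (-0.68) and Aldh1a1 (-0.26) without the 500 mg/kg mice, and 187 lay within 1 standard error of the value reported. With the tag number as a block all but that of Ret moved by more, with Slc6a3 at 2.71, Th at 3.97, En1 at 3.64, Chrna6 at 4.15, Slc18a2 at 2.81, Ddc at 1.79 and Aldh1a1 at 1.35. The causes were not tested. The median correlation was 0.28 to 0.41 without single mice and 0.36 with a pseudocount of 0.25 CPM. The labels give no replicate numbers, and the tag number, found in more than 1 dose group only for 43 and 46, was the only block that could be fitted. The counts of Pitx3 and Foxa1 were too low to test.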
